A study of Mus musculus with 6 samples.

Results

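The genes described here encode the machinery that copies DNA: 49 genes for origin recognition, helicase loading, the MCM helicase and its activators, the replicative polymerases with their primase, the sliding clamp and its loader, the single strand binding protein RPA, the joining of Okazaki fragments, the supply of deoxynucleotides and the handling of chromatin at the fork. The rule that chose them used gene names only, and all 49 were found among the 24972 gene names in the table. Poly(A) RNA was sequenced from 6 adherent cultures of neural stem cells, or NSCs, grown from the mouse V-SVZ (ventricular-subventricular zone), the germinal niche along the lateral ventricles of the brain, 3 labelled Tsc2 mut/mut and 3 Tsc2 wt/wt. Both genotypes carried a Nestin-driven, tamoxifen-dependent Cre recombinase and a red fluorescent reporter, and both received 4-hydroxytamoxifen as neonates. The paper's injection protocol for pups with this Cre also included the thymidine analogue EdU. Cultures of both genotypes were grown in medium with the growth factors EGF and FGF, under conditions the paper calls self-renewing. Only the mut/mut pups carried conditional Tsc2 alleles, which Cre inactivates in the Nestin-expressing cells, and the sequenced cells of both genotypes had been subcultured. The comparison asks which transcripts differ when Tsc2, which encodes the mTORC1 inhibitor tuberin, is lost from NSCs.

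Copying of a genome starts at origins. The origin recognition complex (ORC) and Cdc6 recruit Cdt1 and load rings of MCM2 to MCM7 in G1 phase, geminin (Gmnn) blocks Cdt1 afterwards, and Cdc45 and GINS turn each loaded ring into a moving helicase at the start of S phase. Polymerase alpha with primase lays primers, the RFC loader places the PCNA clamp, and polymerases delta and epsilon extend the strands. Many of these genes are transcribed at the G1 to S transition under E2F factors, which the retinoblastoma proteins restrain, and NSCs of the V-SVZ move between a quiescent and a dividing state.

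Values are normalized counts, that is, gene counts after the authors' DESeq2 normalization. A gene was called where limma's adjusted p fell under 0.05. Over all 13964 genes tested, in the mut/mut-labelled libraries 36.8% were called higher and 38.7% lower, so a single called gene is common in these data. The median log2 difference of all tested genes was -0.07 as deposited, -0.77 with column totals set equal and 0.15 after a trend with transcript GC content and length was removed (the GC and length correction), and each value below is to be read against its own shift. Summed over all genes, normalized counts came to 45047522, 45099328 and 55746274 in the mut/mut-labelled libraries, against 30355676, 29205232 and 28992642 in wt/wt libraries. The sequencing depth behind these values is unknown: only 28.0% to 57.7% of low values lay within 0.1 of a whole multiple of the best step, so whole reads could not be recovered.

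The targeted gene itself had a higher value in the mut/mut-labelled libraries. Tsc2 (chromosome 17, 24595816 to 24632630, minus strand) had 4766, 5645 and 8210.5 normalized counts in the mut/mut-labelled libraries, against 3231, 2934 and 2794 in wt/wt libraries, a log2 fold change of 1.02 ± 0.20 (SE, n = 3 each, limma adjusted p = 0.00101). It was not called with column totals set equal (0.31, limma adjusted p = 0.0812), but was called higher after the GC and length correction (1.27, limma adjusted p = 5.575e-05). Reads of all exons enter this value, the deleted part among them, so it is no check of either label. The paper reports that its NSC subcultures had lost Tsc2, with tuberin blots of the sequenced cells. Markers of other cell types moved with the genotype. All 7 tested oligodendrocyte lineage markers and all 9 tested microglia and macrophage markers were called lower. Of 8 neuroblast and neuron markers, 6 were called lower and 1 higher. The smooth muscle genes Acta2 and Tagln and the ciliated cell regulator Foxj1 were higher. Over all tested genes, 36.8% were called higher and 38.7% lower. The microglia markers Cx3cr1, Aif1 and Ptprc were listed at 0 in every mut/mut-labelled library. Summed oligodendrocyte lineage markers had 1204 to 2171 normalized counts in the mut/mut-labelled libraries, against 12372 to 22349 in wt/wt libraries, and microglia markers 71.6 to 81.6 in the mut/mut-labelled libraries, against 613 to 1465 in wt/wt libraries. Neuroblast and neuron markers summed to 4026 to 5497 in the mut/mut-labelled libraries, against 14195 to 15538 in wt/wt libraries. Pericyte and smooth muscle markers, of which 2 of 4 tested were higher and 2 were not called, summed to 5480 to 7693 in the mut/mut-labelled libraries, against 180.0 to 277 in wt/wt libraries. Ependymal markers, of which 1 of 2 tested was higher, summed to 5841 to 8459 in the mut/mut-labelled libraries, against 705 to 1066 in wt/wt libraries, and endothelial markers, 1 of 3 tested higher and 1 lower, summed to 102 to 219 in the mut/mut-labelled libraries, against 461 to 942 in wt/wt libraries. The Y-linked gene Ddx3y had 7.43, 4.42 and 2.54 normalized counts in the mut/mut-labelled libraries and 891, 867 and 932 in wt/wt libraries, so the sex of the donors and the genotype cannot be told apart. The part of these differences in the results below was not tested. In bulk RNA, a change in the share of cells in S phase and a change in RNA per cell cannot be told apart.

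Replication genes were mostly higher in the mut/mut-labelled libraries. All 49 passed the filter on low values, and 34 were called higher, 5 lower and 10 neither. That is 69.4% higher and 10.2% lower, against 36.8% and 38.7% of all tested genes. Their median log2 fold change was 1.08, against -0.07 for all tested genes. At stricter limits modelled on the study's, a limma adjusted p under 1e-05 with a log2 change over 1 in size, 14 were higher and 2 lower, against 4.6% and 8.77% of all tested genes. The study applied its limits to DESeq2 results, and its wording of the fold limit is open to other readings. The 5 that fell were Orc3, Orc4, Pola1, Rfc1 and Casp8ap2. Together the 49 genes took 0.587%, 0.594% and 0.562% of the normalized counts in the mut/mut-labelled libraries, against 0.404%, 0.339% and 0.363% in wt/wt libraries.

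In 34 genes every mut/mut-labelled library was above every wt/wt library, which 39.4% of all tested genes also showed, and in 6 every one was below, as in 41.2% of all tested genes. The 6 were the 5 called genes and Mcm4, and the groups overlapped in the other 9. The split moved with the scaling. With column totals set equal, 25 genes were called higher and 10 lower, against 20.6% and 54.5% of all tested genes. After the GC and length correction, 43 were called higher and 4 lower, against 40.8% and 29.3% of tested genes with a transcript.

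**Figure D1:**
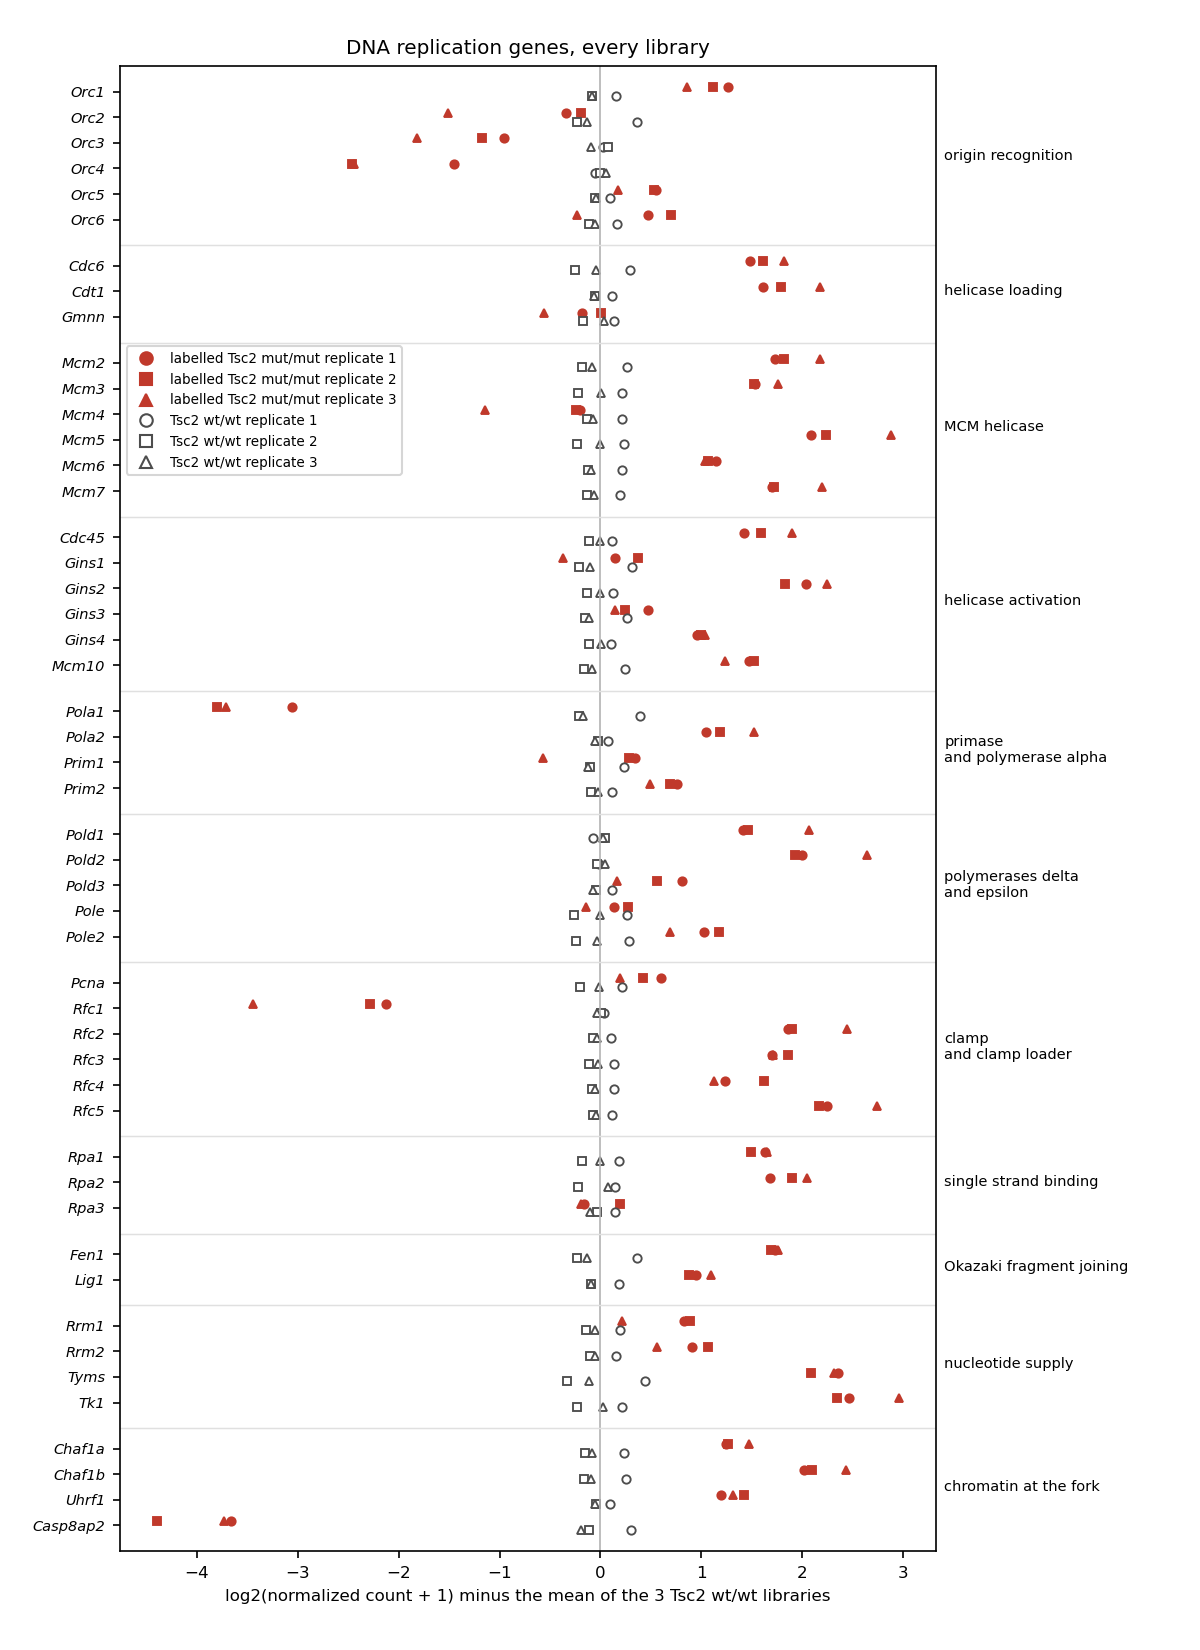
Each row is 1 of the 49 replication genes, grouped by role, and each point is 1 library, placed by its log2(normalized count + 1) minus the mean of the 3 wt/wt libraries; filled red marks are the libraries labelled Tsc2 mut/mut, open grey marks are Tsc2 wt/wt. Filled marks lie right of all open marks in 34 genes and left of all of them in 6, with Pola1, Rfc1 and Casp8ap2 farthest left, and replicate 3 (triangle) is often the outermost filled mark.

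Promoters of 3 genes are shown first, since E2F sites are the best known common feature of this gene class: Mcm5, the MCM subunit with the largest rise, Cdc6, the helicase loader, and Pcna, whose rise stayed short of the threshold. Mcm4, the MCM subunit with the smallest log2 fold change, is named only. Sequences are RefSeq, build GRCm38.p6, 250 bases before to 50 bases after an annotated start, 5′ to 3′ on the gene's strand: chr8:75109259-75109558, plus strand for Mcm5, chr11:98907901-98908200, plus strand for Cdc6 and chr2:132253131-132253430, minus strand for Pcna. Capitals mark the core letters of an E2F site, TTCCCGC or TTGGCGC or TTCGCGC or TTGCCGC, on either strand.
Mcm5: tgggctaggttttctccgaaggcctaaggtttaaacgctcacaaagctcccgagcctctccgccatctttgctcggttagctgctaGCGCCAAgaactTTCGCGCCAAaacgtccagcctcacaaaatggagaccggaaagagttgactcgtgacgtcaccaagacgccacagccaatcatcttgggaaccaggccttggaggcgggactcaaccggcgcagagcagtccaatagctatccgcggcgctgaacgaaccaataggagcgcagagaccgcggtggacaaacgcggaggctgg
Cdc6: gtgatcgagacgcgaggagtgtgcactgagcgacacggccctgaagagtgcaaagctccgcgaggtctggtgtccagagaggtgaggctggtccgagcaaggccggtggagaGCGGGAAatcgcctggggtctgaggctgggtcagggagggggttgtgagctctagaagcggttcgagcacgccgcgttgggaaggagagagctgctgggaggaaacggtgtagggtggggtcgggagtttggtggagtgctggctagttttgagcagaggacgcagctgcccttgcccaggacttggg
Pcna: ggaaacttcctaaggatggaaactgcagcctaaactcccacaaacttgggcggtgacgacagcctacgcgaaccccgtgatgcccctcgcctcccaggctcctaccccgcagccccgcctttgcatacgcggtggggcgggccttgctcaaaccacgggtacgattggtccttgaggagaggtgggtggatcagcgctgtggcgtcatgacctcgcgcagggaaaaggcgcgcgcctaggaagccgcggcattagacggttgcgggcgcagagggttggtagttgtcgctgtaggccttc
Mcm5 held 3 core matches, which began 164, 152 and 149 bases before the start, the last 2 overlapping in 1 run of capitals. Cdc6 held 1, at 138 bases before the start, and the window of Pcna held none. Of the 49 genes, 41 matched the promoter table, with 50 promoters, and a gene was counted by any of its promoters. The full motif (TTTCCCGC or TTTGGCGC or TTTCGCGC or TTTGCCGC, either strand, each of which contains a core) was found in 17 of 41 genes, or 41.5%, against 4.6% of the 10885 tested genes in the table and 2.6% of all 27025 genes in it. The core was found in 28 of 41 (68.3%), against 19.6% of tested genes and 10.9% of all genes. CCAAT on either strand, which can share its first letters with a core on the minus strand, was found in 26 of 41 (63.4%), against 42.9% of tested genes and 41.1% of all genes. By direction, the full motif was found in 13 of 30 genes called higher, in 3 of 5 called lower and in 1 of 6 not called, and the core in 20, 5 and 3 of them. Pola1 and Casp8ap2, the members with the largest falls as deposited, held 4 and 3 core matches, and Tk1, the member with the largest rise as deposited, held none.

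ORC is the 6-subunit complex that marks origins. As deposited, 2 of its genes were called higher, 2 lower and 2 neither, shares near the 36.8% and 38.7% of all tested genes, with a median log2 fold change of -0.19. The count depended on the scaling. It was 0 higher and 3 lower at equal column totals, against 20.6% and 54.5% of all tested genes. After the GC and length correction it was 5 higher and 0 lower, against 40.8% and 29.3% of tested genes with a transcript. Orc1, the subunit that turns over with the cell cycle in human cells (chromosome 4, 108579423 to 108614833, plus strand), had 321, 289.8 and 242 normalized counts in the mut/mut-labelled libraries, against 148, 126 and 126 in wt/wt libraries. The groups did not overlap (log2 fold change 1.08 ± 0.21 SE, n = 3 each, limma adjusted p = 0.000861), but Orc1 was not called with column totals set equal (0.37, limma adjusted p = 0.194). Orc4, a core subunit (chromosome 2, 48902824 to 48950277, minus strand), had 203, 100.4 and 101 normalized counts in the mut/mut-labelled libraries, against 538, 555 and 576 in wt/wt libraries. Every mut/mut-labelled library was lower, by 4.34-fold on average (log2 fold change -2.12 ± 0.28 SE, n = 3 each, limma adjusted p = 5.91e-05), but after the GC and length correction the sign of Orc4 turned, to 0.89 (limma adjusted p = 0.00248). Orc6, the smallest subunit and, per 1000 bases of transcript, the most abundant of the 6 in every library, had 1327, 1548 and 809.8 normalized counts in the mut/mut-labelled libraries, against 1070.3, 882 and 920.0 in wt/wt libraries. Replicate 3 labelled mut/mut was the lowest of all 6 libraries for Orc6, the groups overlapped and the gene was not called (log2 fold change 0.31 ± 0.24 SE, n = 3 each, limma adjusted p = 0.252), though without that replicate it was (0.59, limma adjusted p = 0.00321). Orc3, another core subunit, fell by 1.32 ± 0.23 (SE) on the log2 scale, which was -0.13 and not called once the GC and length trend was removed. Orc2 had a log2 fold change of -0.68 ± 0.33 and was not called (limma adjusted p = 0.0781), but was called without replicate 2 labelled mut/mut (-0.93, limma adjusted p = 0.0317). It was called lower with column totals set equal (-1.40, limma adjusted p = 0.0165) and higher after the GC and length correction (0.58, limma adjusted p = 0.0331). Orc5 was called higher by a narrow margin (0.42 ± 0.17, limma adjusted p = 0.0464), and lost the call when any single library other than replicate 3 labelled mut/mut was left out.

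The loaders Cdc6 and Cdt1 rose, and the Cdt1 inhibitor Gmnn was not called. Cdt1, which delivers MCM rings to ORC (chromosome 8, 122568015 to 122573554, plus strand), had 3983, 4484 and 5859 normalized counts in the mut/mut-labelled libraries, against 1408, 1255 and 1239 in wt/wt libraries. That was 3.63-fold higher with no overlap (log2 fold change 1.86 ± 0.18 SE, n = 3 each, limma adjusted p = 7.86e-06). Cdc6, the ATPase that joins ORC to load the rings (chromosome 11, 98907801 to 98923940, plus strand), had 1791, 1963 and 2258 normalized counts in the mut/mut-labelled libraries, against 785, 536 and 622 in wt/wt libraries, again with every mut/mut-labelled library above (log2 fold change 1.64 ± 0.19 SE, n = 3 each, limma adjusted p = 2.54e-05). Gmnn, which encodes the Cdt1 inhibitor geminin (chromosome 13, 24751845 to 24761923, minus strand), had 718, 816 and 553 normalized counts in the mut/mut-labelled libraries, against 894, 725 and 836 in wt/wt libraries. The groups overlapped for Gmnn and it was not called (log2 fold change -0.25 ± 0.20 SE, n = 3 each, limma adjusted p = 0.272), but it was called lower with column totals set equal (-0.96, limma adjusted p = 0.00822) and after the GC and length correction (-0.82, limma adjusted p = 0.0011). The log2 ratio of Cdt1 over Gmnn was 2.47, 2.46 and 3.40 in the mut/mut-labelled libraries and 0.65, 0.79 and 0.57 in wt/wt libraries, a difference of 2.11.

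The MCM helicase was called higher in 5 of 6 subunits, against 36.8% of all tested genes. MCM2 to MCM7 form a ring with 1 copy of each, the core of the replicative helicase, and the median log2 fold change of their genes was 1.74. Mcm5 (chromosome 8, 75109569 to 75128439, plus strand) had 19212, 21344 and 33339 normalized counts in the mut/mut-labelled libraries, against 5330.4, 3840.1 and 4522 in wt/wt libraries. It had the largest rise of the 6, 5.29-fold higher without overlap (log2 fold change 2.40 ± 0.22 SE, n = 3 each, limma adjusted p = 6.4e-06), and replicate 3 labelled mut/mut stood well above the other two. Mcm2, Mcm7 and Mcm3 rose by 3.75-, 3.66- and 3.04-fold and Mcm6 by 2.12-fold. Mcm4 (chromosome 16, 15623897 to 15637400, minus strand), whose product forms part of the catalytic core, had 2549, 2482 and 1329 normalized counts in the mut/mut-labelled libraries, against 3387, 2666 and 2783 in wt/wt libraries. All mut/mut-labelled libraries were below all wt/wt libraries for Mcm4, mainly through replicate 3, and the gene was not called (log2 fold change -0.53 ± 0.25 SE, n = 3 each, limma adjusted p = 0.0749). Without replicate 1 labelled mut/mut it was called lower (-0.69, limma adjusted p = 0.0383), as it was with column totals set equal (-1.24, limma adjusted p = 0.00851), while removal of the GC and length trend turned it to 0.50, called higher (limma adjusted p = 0.00775).

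Per 1000 bases of the longest coding transcript, the 6 MCM transcripts were farther apart in the mut/mut-labelled libraries than in wt/wt libraries. The most abundant exceeded the least abundant by 8.61-, 9.13- and 26.6-fold in the mut/mut-labelled libraries and by 2.28-, 2.3- and 2.33-fold in wt/wt libraries. Mcm4 was the lowest of the 6 in every library, at a mean of 591 normalized counts per 1000 bases in the mut/mut-labelled libraries and 821 in wt/wt libraries, while Mcm5 averaged 7285 in the mut/mut-labelled libraries and 1350 in wt/wt libraries. The same spread among the 5 clamp loader transcripts was 20.8-, 26.1- and 52.5-fold in the mut/mut-labelled libraries and 2.24-, 2.16- and 2.23-fold in wt/wt libraries. Among the 3 RPA transcripts it was 2.92-, 2.64- and 3.83-fold in the mut/mut-labelled libraries, against 1.41-, 1.6- and 1.35-fold in wt/wt libraries, and among the 4 of polymerase alpha and primase 41.7-, 76.9- and 91.6-fold in the mut/mut-labelled libraries, against 2.33-, 2.82- and 2.84-fold in wt/wt libraries. ORC and GINS also had wider spreads in the mut/mut-labelled libraries. The spread among the 6 ORC transcripts was 18.1-, 42.7- and 22.1-fold in the mut/mut-labelled libraries, against 14.8-, 14.4- and 15.1-fold in wt/wt libraries, and among the 4 GINS transcripts 12.3-, 14.8- and 16.3-fold in the mut/mut-labelled libraries, against 7.87-, 9.04- and 9.52-fold in wt/wt libraries. These spreads are descriptions that were chosen after the values were seen, and they were not corrected for GC content. As deposited, Mcm5 and Mcm4 had log2 fold changes of 2.40 and -0.53, and after the GC and length correction 2.16 and 0.50. The genotype difference in the log2 ratio of Pola2 over Pola1 was 4.77 as deposited and 1.64 after the correction. For the mean of Rfc2 to Rfc5 over Rfc1 it was 4.50 and 3.58.

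Helicase activation genes were called higher in 4 of 6 cases, against 36.8% of all tested genes, with a median log2 fold change of 1.21. Gins2, a subunit of the GINS complex that joins MCM and Cdc45 (chromosome 8, 120578633 to 120589304, minus strand), had 5657, 4888 and 6536 normalized counts in the mut/mut-labelled libraries, against 1507, 1261 and 1379.5 in wt/wt libraries. It was 4.1-fold higher without overlap, the largest rise of this group as deposited (log2 fold change 2.04 ± 0.17 SE, n = 3 each, limma adjusted p = 3.22e-06). Cdc45, the third part of the active helicase, and Mcm10, which is needed for its activation, rose by 3.11- and 2.66-fold, and after the GC and length correction Mcm10 (2.12) was above Gins2 (1.81). Gins4 rose by 2.0-fold as deposited, but was not called with column totals set equal (0.28, limma adjusted p = 0.0883). Gins1 and Gins3 overlapped between the genotypes and were not called, at 0.05 ± 0.24 and 0.29 ± 0.21 on the log2 scale. Within the 4-subunit complex, changes thus ran from 0.05 to 2.04.

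The subunits of polymerase alpha moved in opposite directions. Pola1, its catalytic subunit (chromosome X, 93304767 to 93632155, minus strand), had 143, 85 and 90.2 normalized counts in the mut/mut-labelled libraries, against 1570.2, 1029.8 and 1059.6 in wt/wt libraries. It was 11.5-fold lower in the mut/mut-labelled libraries (log2 fold change -3.52 ± 0.26 SE, n = 3 each, limma adjusted p = 1.88e-06). Pola2, the accessory subunit of the same enzyme (chromosome 19, 5940542 to 5964202, minus strand), had 2694, 2960.2 and 3743 normalized counts in the mut/mut-labelled libraries, against 1377, 1287 and 1254 in wt/wt libraries. It rose 2.38-fold, and neither gene overlapped between the genotypes (log2 fold change 1.25 ± 0.17 SE, n = 3 each, limma adjusted p = 7.2e-05). The fall of Pola1 shrank to -1.15 (limma adjusted p = 0.000855) once the GC and length trend was removed, and the rise of Pola2 to 0.49 (limma adjusted p = 0.00189), and both kept their direction. Prim2, the regulatory primase subunit, was called higher as deposited (0.65 ± 0.16, limma adjusted p = 0.00366), though not with column totals set equal (-0.06), and Prim1, the catalytic primase subunit, was not called (0.02 ± 0.25, limma adjusted p = 0.945).

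Among the leading and lagging strand polymerases, Pold2 and Pold1 of polymerase delta rose most as deposited, while after the GC and length correction Pole2 (1.63) was above Pold2 (1.09) and Pold1 (1.06). Pold2, a regulatory subunit of delta (chromosome 11, 5872180 to 5878292, minus strand), had 13539, 12907 and 21118 normalized counts in the mut/mut-labelled libraries, against 3353, 3298 and 3503 in wt/wt libraries. It was 4.57-fold higher, with the largest rise of the 5 genes as deposited (log2 fold change 2.19 ± 0.20 SE, n = 3 each, limma adjusted p = 5.65e-06). Pold1, the catalytic subunit of delta, rose 3.13-fold, whereas Pole, the catalytic subunit of epsilon, was not called (0.09 ± 0.19, limma adjusted p = 0.684) and overlapped between the genotypes. Pole2, the second subunit of epsilon, rose by 0.96 ± 0.22 on the log2 scale, and was not called with column totals set equal (0.25). Pold3, an accessory subunit of delta, was called narrowly (0.51 ± 0.19, limma adjusted p = 0.0318) and lost the call without replicate 1 or 2 labelled mut/mut (0.36 and 0.49) or without wt/wt replicate 2 or 3 (0.49 and 0.47). After the GC and length correction, all 5 were called higher, against 40.8% of tested genes with a transcript. Pole was among them (0.89, limma adjusted p = 0.00041), whereas with column totals set equal it was called lower (-0.62, limma adjusted p = 0.0349).

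Subunits of the clamp loader likewise moved in opposite directions. Pcna, the ring that tethers polymerases to DNA and, per 1000 bases, the transcript with the highest mean of this group in both genotypes (chromosome 2, 132249162 to 132253314, minus strand), had 15093, 13315 and 11388 normalized counts in the mut/mut-labelled libraries, against 11536, 8636 and 9843 in wt/wt libraries. Replicate 3 labelled mut/mut was just below wt/wt replicate 1, the only overlap, and Pcna missed the threshold (log2 fold change 0.41 ± 0.17 SE, n = 3 each, limma adjusted p = 0.0504); it was called higher without either of these libraries (0.51 and 0.52) and after removal of the GC and length trend (0.87), and had a log2 fold change of -0.31 with column totals set equal. Rfc5, a small subunit of the clamp loader (chromosome 5, 117378103 to 117389047, minus strand), had 5085, 4832 and 7179 normalized counts in the mut/mut-labelled libraries, against 1164, 1019 and 1046 in wt/wt libraries. It rose 5.21-fold (log2 fold change 2.38 ± 0.18 SE, n = 3 each, limma adjusted p = 2.37e-06), and Rfc2, Rfc3 and Rfc4, the other small subunits, rose by 4.2-, 3.38- and 2.51-fold. Rfc1, the large subunit that distinguishes this loader from the alternative ones (chromosome 5, 65261850 to 65335670, minus strand), had 628, 562 and 251 normalized counts in the mut/mut-labelled libraries, against 2804, 2751 and 2672 in wt/wt libraries. Rfc1 was 6.14-fold lower in the mut/mut-labelled libraries, most so in replicate 3, with no overlap (log2 fold change -2.62 ± 0.30 SE, n = 3 each, limma adjusted p = 2.42e-05), and stayed lower at -1.46 after the GC and length correction (limma adjusted p = 8.17e-05).

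RPA coats exposed single strands as a trimer, and its larger subunits rose. Rpa1, the large DNA binding subunit (chromosome 11, 75298166 to 75348324, minus strand), had 11334, 10258 and 11503 normalized counts in the mut/mut-labelled libraries, against 4146, 3224 and 3650 in wt/wt libraries. It was 3.01-fold higher (log2 fold change 1.59 ± 0.15 SE, n = 3 each, limma adjusted p = 8.65e-06). Rpa2, the subunit that checkpoint kinases phosphorylate (chromosome 4, 132768332 to 132778752, plus strand), had 4921, 5716 and 6321 normalized counts in the mut/mut-labelled libraries, against 1691, 1314 and 1618 in wt/wt libraries, or 3.67-fold higher (log2 fold change 1.88 ± 0.17 SE, n = 3 each, limma adjusted p = 5.7e-06). Rpa3, the small subunit, overlapped between genotypes and was not called (-0.05 ± 0.18, limma adjusted p = 0.798), but was called lower with column totals set equal (-0.77) and higher after the GC and length correction (1.21). Both genes for joining Okazaki fragments were called higher, against 36.8% of all tested genes. Fen1, the flap nuclease (chromosome 19, 10199132 to 10204169, minus strand), had 5748, 5586 and 5892 normalized counts in the mut/mut-labelled libraries, against 2231, 1478 and 1578 in wt/wt libraries. That was 3.31-fold higher (log2 fold change 1.73 ± 0.18 SE, n = 3 each, limma adjusted p = 1.35e-05). Lig1, the ligase that seals the nicks (chromosome 7, 13277283 to 13311433, plus strand), had 8531, 8102 and 9465 normalized counts in the mut/mut-labelled libraries, against 5034, 4133 and 4150.4 in wt/wt libraries. Lig1 rose 1.96-fold without overlap (log2 fold change 0.97 ± 0.15 SE, n = 3 each, limma adjusted p = 0.000213), but was not called with column totals set equal (0.26, limma adjusted p = 0.0643).

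All 4 nucleotide supply genes were called higher, against 36.8% of all tested genes. Tk1 and Tyms of thymidylate supply rose by more than the ribonucleotide reductase genes as deposited, while after the GC and length correction Tk1 was at 1.52 and Rrm1 at 2.04. Tk1, the thymidine salvage kinase (chromosome 11, 117815526 to 117826092, minus strand), had 11301, 10370 and 15914 normalized counts in the mut/mut-labelled libraries, against 2368, 1737 and 2082 in wt/wt libraries. It had the largest rise of all 49 genes as deposited, 6.01-fold, and a rise above that of 99.2% of tested genes (log2 fold change 2.59 ± 0.20 SE, n = 3 each, limma adjusted p = 2.32e-06). Tyms, which makes thymidylate de novo, rose 4.77-fold, and after the GC and length correction was above Tk1, at 2.64. Rrm1, the large subunit of ribonucleotide reductase (chromosome 7, 102441695 to 102469771, plus strand), had 13334, 13866 and 8681 normalized counts in the mut/mut-labelled libraries, against 8599, 6814 and 7223 in wt/wt libraries. Rrm2, its small, cell cycle regulated subunit (chromosome 12, 24708241 to 24714146, plus strand), had 10159, 11341 and 7974 normalized counts in the mut/mut-labelled libraries, against 6025, 5041 and 5189.8 in wt/wt libraries. Neither overlapped, although replicate 3 labelled mut/mut came close to wt/wt replicate 1 for Rrm1. Rrm1 was called (log2 fold change 0.64 ± 0.20 SE, n = 3 each, limma adjusted p = 0.0143), and so was Rrm2 (log2 fold change 0.85 ± 0.17 SE, n = 3 each, limma adjusted p = 0.00116). Neither was called with column totals set equal (-0.07 and 0.13). Rrm1 also lost its call without replicate 1 or 2 labelled mut/mut (0.55 and 0.52) or wt/wt replicate 2 (0.57).

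Chromatin genes at the fork included the largest fall of the 49 as deposited, though after the GC and length correction Rfc1 (-1.46) was below Casp8ap2 (-1.19). Casp8ap2, also called FLASH, which is needed for making replication-dependent histone mRNA (chromosome 4, 32615451 to 32653265, plus strand), had 35.4, 20.9 and 33.8 normalized counts in the mut/mut-labelled libraries, against 569, 426 and 402 in wt/wt libraries. It was 15.2-fold lower (log2 fold change -3.93 ± 0.27 SE, n = 3 each, limma adjusted p = 1.33e-06), and stayed called after the correction (limma adjusted p = 0.00527). Chaf1b, a subunit of the histone chaperone CAF-1 (chromosome 16, 93883901 to 93906115, plus strand), had 3782, 3980.1 and 5029 normalized counts in the mut/mut-labelled libraries, against 1111, 833 and 871 in wt/wt libraries. It rose 4.54-fold (log2 fold change 2.18 ± 0.18 SE, n = 3 each, limma adjusted p = 3.61e-06), and its partner Chaf1a rose 2.51-fold. Uhrf1, which guides maintenance methylation of new DNA (chromosome 17, 56303321 to 56323486, plus strand), had 8964, 10520 and 9733 normalized counts in the mut/mut-labelled libraries, against 4192, 3793 and 3783 in wt/wt libraries. Its rise of 2.48-fold was without overlap (log2 fold change 1.31 ± 0.15 SE, n = 3 each, limma adjusted p = 1.97e-05).

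**Figure D2:**
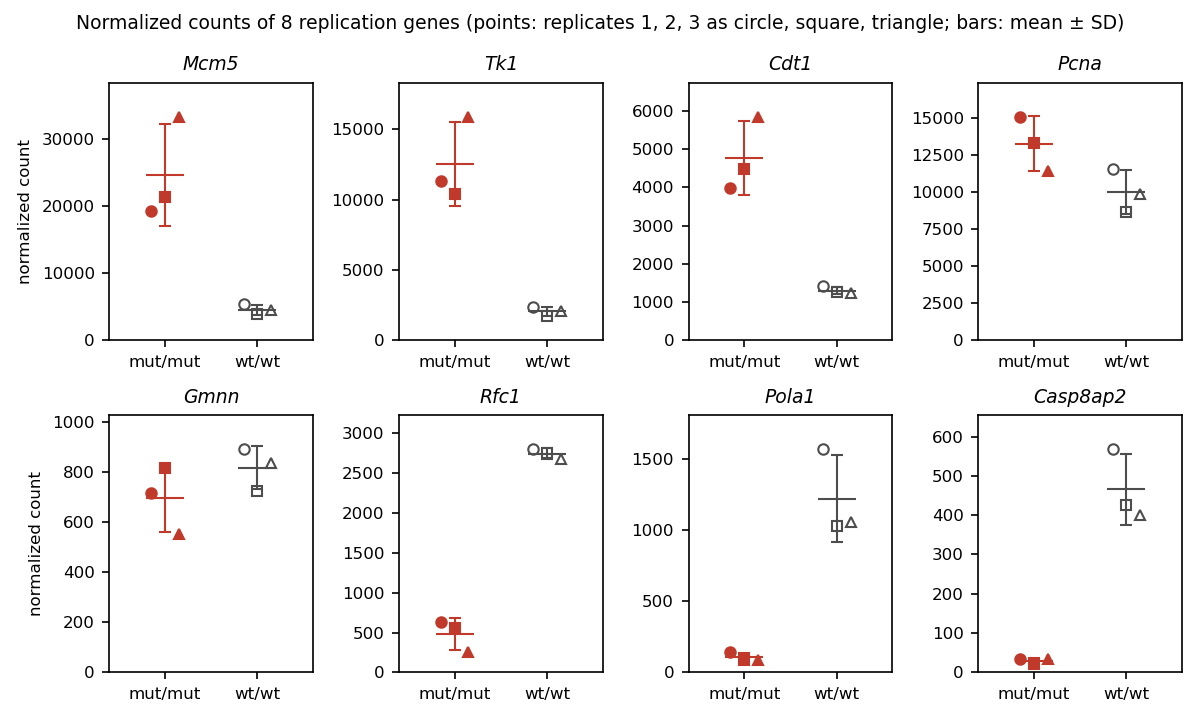
Normalized counts of 8 replication genes in the 3 libraries labelled Tsc2 mut/mut (red, left) and the 3 Tsc2 wt/wt libraries (grey, right), with the mean and SD of each group, on linear axes from 0. Mcm5, Tk1 and Cdt1 were higher and Rfc1, Pola1 and Casp8ap2 lower without overlap, while the groups overlapped in Pcna and Gmnn.

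Ratios within a complex or step do not depend on the scale of a library. In all 9 ratios computed, the 3 mut/mut-labelled libraries and the 3 wt/wt libraries did not overlap, which gives p = 0.1 in each by the exact two-sided permutation test, the smallest value that 3 against 3 allows, and 0.1 after Benjamini-Hochberg adjustment. No ratio could therefore pass a threshold of 0.05. The log2 ratio of Pola2 over Pola1 was 4.23, 5.11 and 5.36 in the mut/mut-labelled libraries and -0.19, 0.32 and 0.24 in wt/wt libraries, the largest difference at 4.77. The mean of Rfc2 to Rfc5 over Rfc1 was 2.73, 3.02 and 4.30 in the mut/mut-labelled libraries and -1.06, -1.24 and -1.15 in wt/wt libraries. On this scale, which is not adjusted for length, Rfc1 thus stood above the mean of the small subunits in every wt/wt library and below it in every mut/mut-labelled library. Orc1 over Orc2 differed by 1.77, Pold1 over Pole by 1.56, Chaf1b over Chaf1a by 0.86, the MCM mean over the GINS mean by 0.55, Rrm2 over Rrm1 by 0.21 and Prim1 over Prim2 by -0.63.

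Ratios of 2 transcripts still carry any difference in their GC content and length. With that trend removed, 4 of the 9 differences left the limit of the test or turned: Pold1 over Pole was 0.17 (exact permutation p = 0.5), Prim1 over Prim2 0.04 (p = 0.9), Chaf1b over Chaf1a -0.05 (p = 0.3) and Rrm2 over Rrm1 -0.69 (p = 0.1). Cdt1 over Gmnn, Orc1 over Orc2, Pola2 over Pola1, the clamp loader ratio and the ratio of MCM to GINS kept their direction and their exact permutation p of 0.1, at 1.73, 1.07, 1.64, 3.58 and 0.77.

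**Figure D3:**
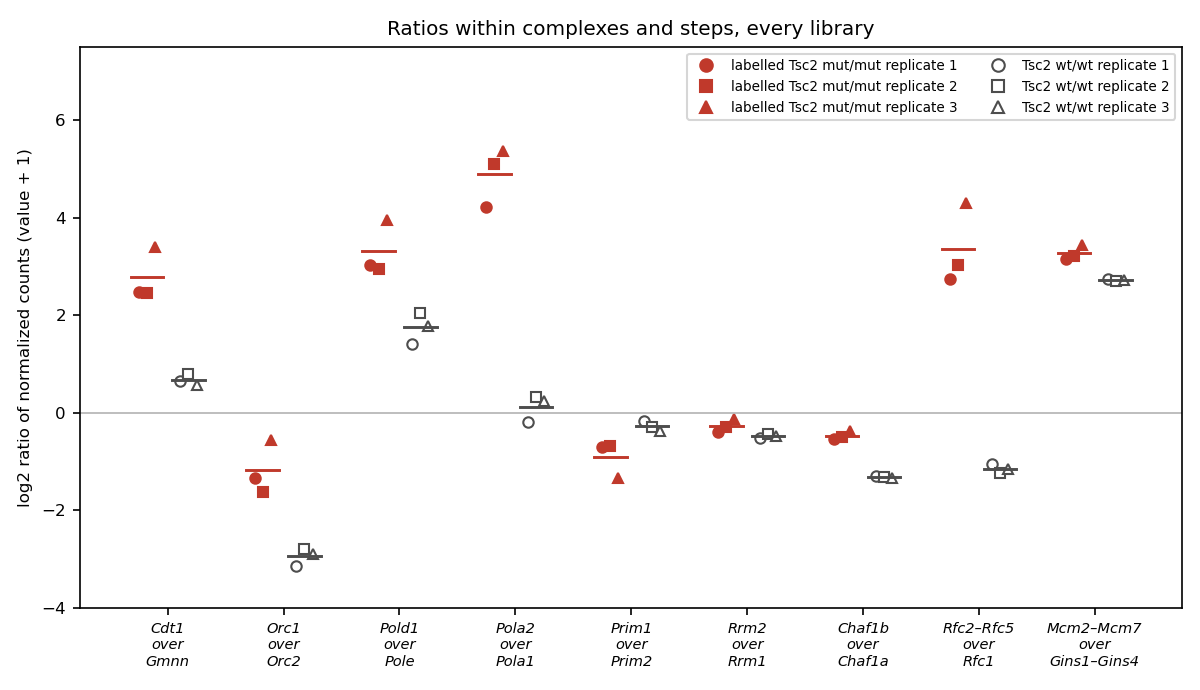
Log2 ratios of normalized counts (value + 1) within replication complexes and steps, with each library as a point and each group mean as a bar; red filled marks on the left of each pair are the libraries labelled Tsc2 mut/mut, grey open marks on the right are Tsc2 wt/wt. No pair overlaps, and Pola2 over Pola1 and the small over the large clamp loader subunits differ most, by 4.77 and 4.50.

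Transcript GC content moved with the genotype difference. Across the 49 genes, Pearson's r between GC content of the longest coding transcript and the log2 fold change was 0.69 (Spearman's rho 0.72), and across all 13239 tested genes with such a transcript it was 0.58 (0.59). These are descriptions across genes, which share the same 6 libraries. Median GC content was 50.7% for the 34 genes called higher, 41.5% for the 5 called lower and 45.5% for the 10 not called, against 50.5% for all tested genes. Inside the mut/mut group, the difference of replicate 3 labelled mut/mut from replicates 1 and 2 had an r of 0.68 with GC content across the 49 genes and 0.58 across all tested genes. Inside the wt/wt group, the difference of replicate 1 from replicates 2 and 3 had an r of -0.15 across the 49 genes and -0.10 across all tested genes. Whether this relation has any part in the genotype differences was not tested. In each of 4 bins of GC content, set after the values were seen, the replication genes had a higher median than all tested genes in the bin. Under 45% GC the medians were -0.05 for 11 replication genes and -1.98 for all genes, from 45% to 50% they were 0.85 for 19 and -0.49, from 50% to 55% they were 1.73 for 13 and 0.52, and above that 1.88 for 6 and 0.93.

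**Figure D4:**
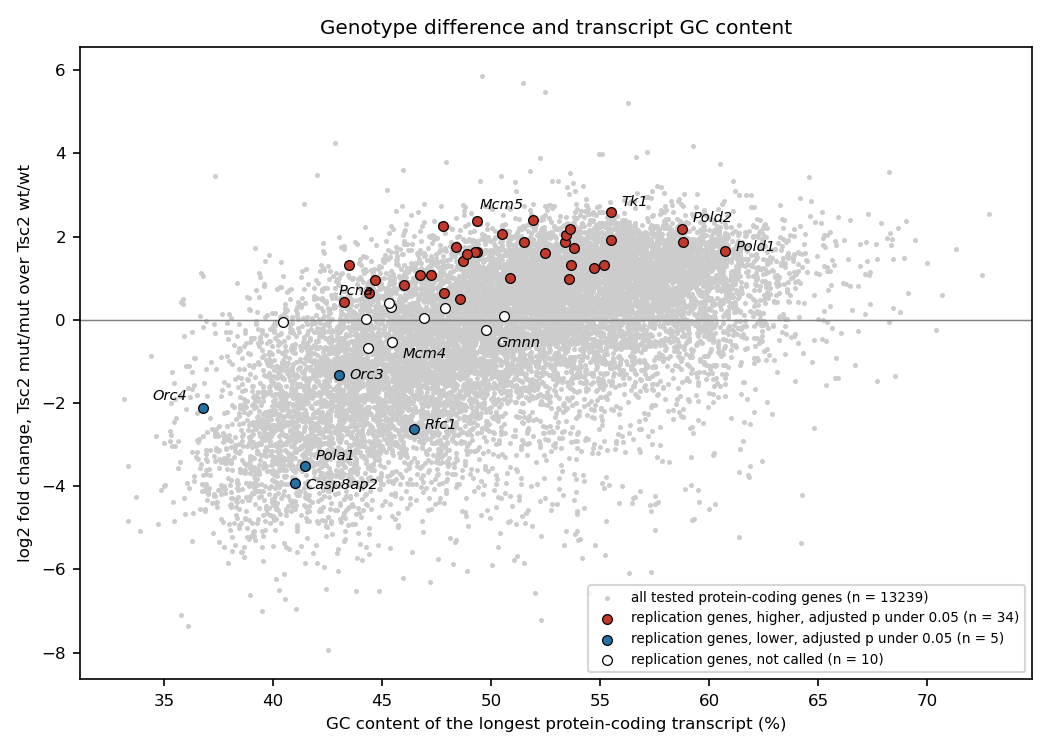
Log2 fold change of the libraries labelled Tsc2 mut/mut over Tsc2 wt/wt (vertical) against GC content of the longest coding transcript in percent (horizontal), with all 13239 tested protein-coding genes in grey and the 49 replication genes as large marks coloured by call. Log2 fold changes rise with GC content in both, and most replication genes lie in the upper part of the grey cloud at their own GC content, with Rfc1 among the exceptions.

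The trend-corrected values left 3 of the 5 falls called, those of Pola1, Rfc1 and Casp8ap2. Gmnn joined them, Orc4 turned to higher and Orc3 was no longer called. All 34 genes called higher as deposited were also called higher after the correction, and 9 more joined them. With column totals set equal, 25 of the 34 kept the call, none was called in the other direction, and all 5 falls stayed called.

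**Figure D5:**
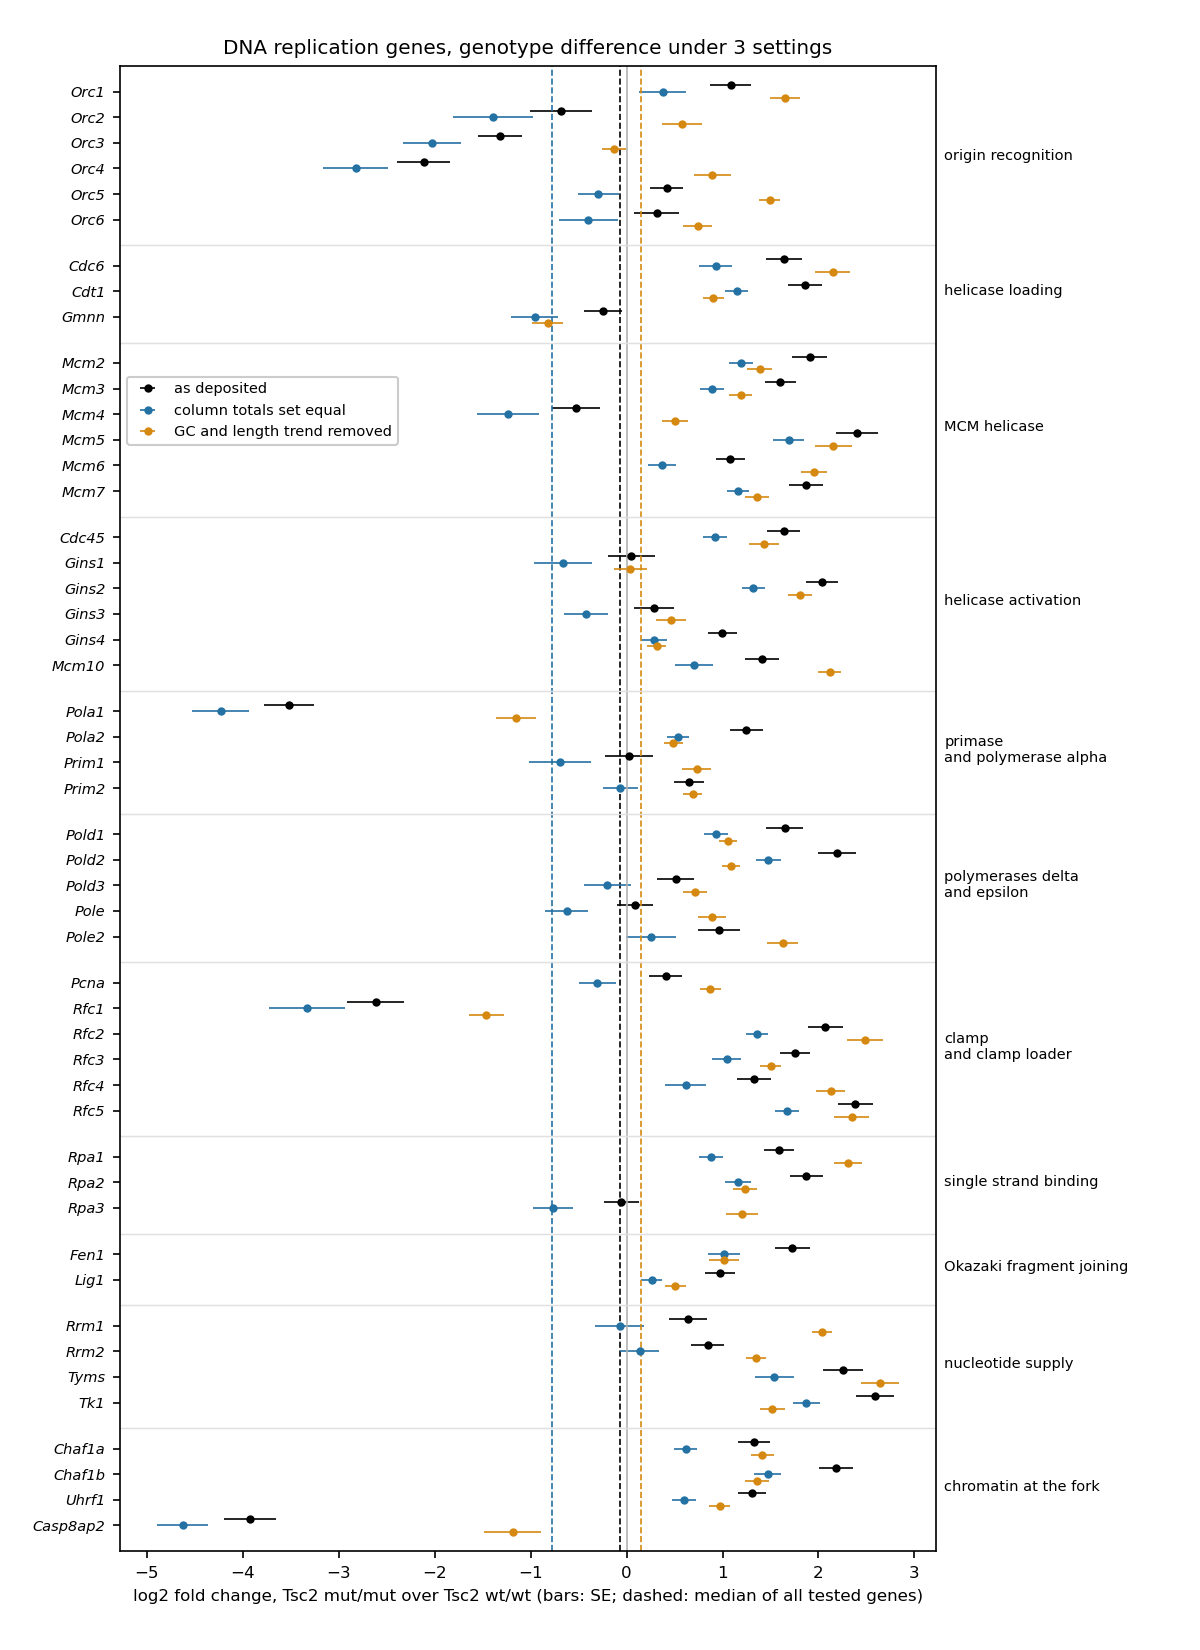
Log2 fold changes (points) with standard errors (bars) of the 49 replication genes, libraries labelled Tsc2 mut/mut over Tsc2 wt/wt, as deposited (black), with column totals set equal (blue) and after the GC and length correction (orange); dashed lines are the medians of all tested genes under each setting, at -0.07, -0.77 and 0.15. Equal totals move each gene left by a like amount, while the correction moves genes of low GC content such as Orc4, Pola1 and Casp8ap2 far to the right.

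The libraries of 1 genotype were not alike in these genes. Among wt/wt libraries, replicate 1 had the highest value in 45 of the 49 genes, against 50.3% of all tested genes, with a median log2 difference of 0.27 from the other two, against 0.07 over all tested genes. Replicate 2 was the lowest in 38. In the same 3 libraries, replicate 1 was also the highest for 16 of 19 mitosis genes. Among mut/mut-labelled libraries, replicate 3 was the highest in 21 and the lowest in 22 of the 49 genes. That is 42.9% and 44.9%, near the 44.8% and 41.7% of all tested genes.

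Of 36 other fork and origin genes, 13 were called higher, 12 lower and 11 neither, with a median of -0.04, near the 36.8% and 38.7% of all tested genes. There were 9 higher and 19 lower at equal column totals, against 20.6% and 54.5% of all tested genes. After the GC and length correction there were 18 higher and 8 lower, against 40.8% and 29.3% of tested genes with a transcript. The 4 with the smallest adjusted p all fell: Atad5, which unloads PCNA (-3.53 ± 0.25), the topoisomerase Top1 (-2.73 ± 0.20), Rif1, which delays late origins (-4.52 ± 0.33), and Supt16, a subunit of the histone chaperone FACT (-3.03 ± 0.24). Each was again lower after the GC and length correction, at -0.89, -0.89, -1.20 and -1.73. Of 8 other nucleotide genes, 4 were higher and 1 lower, against 36.8% and 38.7% of all tested genes. Equal column totals gave 3 higher and 3 lower, against 20.6% and 54.5% of all tested genes. The GC and length correction gave 7 higher and 1 lower, against 40.8% and 29.3% of tested genes with a transcript. Dut, which removes dUTP, had 6064, 6736 and 7040 normalized counts in the mut/mut-labelled libraries, against 2163, 1658 and 1782.5 in wt/wt libraries (log2 fold change 1.83 ± 0.16). Dtymk, the thymidylate kinase, and Shmt1, which feeds thymidylate synthesis, rose by 2.01 ± 0.19 and 1.62 ± 0.16, while Rrm2b, the reductase subunit known from DNA repair and quiescent cells, fell by 3.95 ± 0.39. Log2 fold changes of these 8 genes ran from -3.95 to 2.01 as deposited, but only from -1.35 to 1.65 after the GC and length correction.

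The E2F, retinoblastoma and S phase entry genes were called higher in 11 and lower in 8 of 21 cases, against 36.8% and 38.7% of all tested genes. Equal column totals gave 8 higher and 9 lower, against 20.6% and 54.5% of all tested genes. The GC and length correction gave 17 higher and 3 lower, against 40.8% and 29.3% of tested genes with a transcript. Ccne1, the cyclin that drives S phase entry, had 3711, 4159 and 5150 normalized counts in the mut/mut-labelled libraries, against 727, 555 and 634 in wt/wt libraries (2.76 ± 0.18, limma adjusted p = 9.86e-07). Mybl2, an E2F target and transcription factor of S phase, rose by 2.19 ± 0.22. Rb1, the retinoblastoma protein that restrains E2F, had 114, 105 and 52.0 normalized counts in the mut/mut-labelled libraries, against 1029, 1039 and 1027 in wt/wt libraries (-3.58 ± 0.29, limma adjusted p = 2.93e-06). Its relative Rbl2 fell by 2.04 ± 0.21, and after the GC and length correction Rb1 and Rbl2 were at -1.31 and -0.95.

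Of 19 mitosis genes, 10 were called higher, 7 lower and 2 neither, with a median of 0.52, against 36.8% higher and 38.7% lower of all tested genes. Equal column totals gave 8 higher and 8 lower, against 20.6% and 54.5% of all tested genes. The GC and length correction gave 10 higher and 5 lower, against 40.8% and 29.3% of tested genes with a transcript. The 4 with the smallest adjusted p fell: Mki67, the proliferation marker, had 879, 424 and 578 normalized counts in the mut/mut-labelled libraries, against 12139, 11549 and 12328 in wt/wt libraries (-4.32 ± 0.24, limma adjusted p = 3.85e-07), and the kinetochore genes Cenpf and Cenpe and the spindle motor Kif11 fell by 4.63 ± 0.24, 4.58 ± 0.26 and 3.26 ± 0.21. After the GC and length correction, Mki67, Cenpf, Cenpe and Kif11 were still lower, at -2.40, -1.90, -2.10 and -1.16. Summed as deposited, the mitosis list was higher, at 108300, 93812 and 114780 normalized counts in the mut/mut-labelled libraries, against 83077, 74714 and 75213 in wt/wt libraries. As a share of each library's summed normalized counts it was lower, at 0.240%, 0.208% and 0.206% in the mut/mut-labelled libraries, against 0.274%, 0.256% and 0.259% in wt/wt libraries. Among NSC markers, 2 of 10 were higher and 4 lower, against 36.8% and 38.7% of all tested genes. For these markers, equal column totals gave 0 higher and 9 lower, against 20.6% and 54.5% of all tested genes. The GC and length correction gave 2 higher and 5 lower, against 40.8% and 29.3% of tested genes with a transcript. Fabp7 fell by 2.43 ± 0.18, Sox2 by 1.28 ± 0.19 and Slc1a3 by 1.35 ± 0.25, and each was again lower under both alternative scalings. Vim, an intermediate filament gene, rose by 0.66 ± 0.14 as deposited, but had values of -0.06 with column totals set equal and -0.11 after the GC and length correction, neither of them called. All 10 NSC markers were well above 0 in every library, from 1123 normalized counts for Sox9 upward in the mut/mut-labelled libraries and from 1556 for Sox9 in wt/wt libraries.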

How the data were processed

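RNA-seq signal values of 3 libraries labelled Tsc2 mut/mut and 3 Tsc2 wt/wt libraries were analysed, each from its own NSC culture. Per the submitters' processing notes, the authors aligned reads with STAR to mm10 and normalized gene counts with DESeq2, and the deposited signal is that normalized count. The gene counter, the annotation and the use of strand are not given in the sources used here. The values could not be turned back into whole reads, so count models were not used and depth is unknown.

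Values were compared as log2(value + 1), a scale that understates changes of low genes, with limma 3.58.1 in R 4.3.3 (trend and robust options, two-sided) in 13964 genes that averaged 10 or more, and p was adjusted by Benjamini-Hochberg over all of them. Genes were called at an adjusted p under 0.05. Transcript GC content, length and positions came from the reference annotation, and ratios used an exact permutation test (scipy 1.17.1). The script was tested on simulated data with no GC or length trend and no difference in scale between the genotypes. That test therefore does not cover these features of the real values. Alternatives were other pseudocounts, filters, scalings, stricter limits, a replicate block and leaving out each library. Same-numbered libraries did not deviate together (correlations 0.112, -0.00369 and 0.0712), so numbers were not used as pairs.

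The rule for the 49 genes used gene names and no values. Even so, these genes and all lists were chosen with earlier results of these data known. Values per library are given for the called genes with the largest rise and fall and the gene with the highest mean count in each role group, and for Cdt1, Gmnn, Pcna and Rrm2, and up to 4 called genes with the smallest adjusted p are named from each other list.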

Additional observations from a re-analysis of the deposited data

How the results depend on the processing

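Pseudocounts of 0.5 and 5 changed no call or direction among the 49 genes. The scalings and single libraries did. At the stricter limits, 1866 of all genes were called instead of 10542, with 14 of the 49 higher and 2 lower. Equal column totals gave 10 lower calls instead of 5, and Orc5 (-0.29), Orc6 (-0.40), Gins1 (-0.66), Gins3 (-0.42), Prim1 (-0.69), Prim2 (-0.065), Pold3 (-0.20), Pole (-0.62), Pcna (-0.31), Rrm1 (-0.072) and the primase and polymerase alpha median (-0.38) turned negative. After the GC and length correction, with and without the replicate block, Orc2 (0.58), Orc4 (0.89), Mcm4 (0.50), Rpa3 (1.21) and the origin recognition median (0.82) turned positive. After the correction alone, since ratios were not run with both, the ratios Prim1 over Prim2 (0.045), Rrm2 over Rrm1 (-0.69) and Chaf1b over Chaf1a (-0.054) changed sign. Apart from those scalings, the causes were not tested.

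Leaving out each library in turn gave 9611 to 10797 calls over all genes, with 31 to 36 of the 49 higher and 5 to 6 lower. Of all 13964 tested genes, 4643 to 5290 were then called higher and 4968 to 5507 lower. Ranges crossed 0 for Gins1 (-0.11 to 0.26), Prim1 (-0.14 to 0.31), Pole (-0.041 to 0.22), Rpa3 (-0.18 to 0.017) and the origin recognition median (-0.40 to 0.13). In 38 of the 49 genes direction and call held without any single library.

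A replicate block, which the numbers do not support as a pairing, called 10576 of all genes, 5102 higher and 5474 lower. Of the 49, 33 were higher and 7 lower: Orc5 lost its call (limma adjusted p = 0.0553) and Orc2 (0.00967) and Mcm4 (0.0209) gained one. Replicates 1 and 3 of both genotypes correlated best with their own number, at 0.112 and 0.0712, while replicate 2 of neither genotype did (-0.00369). Depth is unknown, and low values such as those of Casp8ap2 are the least precise.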
